A study of Homo sapiens with 4 samples.

Results

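Chaperones bind unfolded polypeptides and help them to fold, and the heat shock genes are those chaperones, with their regulators, whose transcription heat shock factors raise when unfolded protein builds up. The genes described here are the 70 genes, of 40205 listed in the deposited tables (19784 of them of the type mRNA), whose symbols name the HSP70 and HSP110 proteins, the small heat shock proteins, HSP60 and HSP10, HSP90, the J proteins of class A and class B, the TRiC chaperonin, prefoldin, the BAG proteins or a heat shock factor. They were chosen by symbol and gene type, so that no measured value entered the choice, and HSPA5, DNAJB9 and DNAJB11 of the endoplasmic reticulum were left out. Most act in the cytosol, but not all: HSPD1 and HSPE1 (the HSP60 and HSP10 chaperonin), HSPA9 and DNAJA3 work in mitochondria, HSPE1-MOB4 is a readthrough transcript, and HSPBP1, HSPBAP1 and HSF2BP were matched through their symbols only. In the folding pathway, prefoldin carries new chains to the barrel-shaped TRiC, HSP70 takes short stretches of chain in cycles of ATP use that J proteins start and BAG and HSP110 proteins end, and HSP90 takes nearly folded clients from HSP70. Heat shock factor HSF1 is held inactive by chaperones in unstressed cells, and tumour cells often carry high levels of all these proteins.

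The question was how these transcripts differ after circZFR, a circular RNA made from exons of ZFR, was silenced in a lung adenocarcinoma line. There were 2 groups of 2 libraries each, all of total RNA taken 24 h after transfection: NC (NC 1 and NC 2), which received a negative control siRNA, and si-circZFR (si-circZFR 1 and si-circZFR 2), which received siRNA against circZFR. The cells of all 4 libraries were grown in the same medium and both groups were transfected, with no untransfected group. The sample labels name the line H1299, whereas the design text and the article name A549. AKR1B10, abundant in A549, was at 1296 to 1677 scaled RPKM in the 4 libraries, and CDKN2A, deleted in A549, was listed at 0, so the libraries are called here by their siRNA and not by a line. No label states that 2 libraries of a group came from separate cultures, and p-values then measure only the spread between these libraries.

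Values are RPKM (reads divided by transcript length and by the reads mapped in the library), scaled between libraries. The read totals recovered from the tables were 11959335 and 12816868 in the NC libraries, and 11266089 and 11040050 in the si-circZFR libraries. The 70 genes took 1.05% and 1.21% of these reads in NC, and 1.09% and 1.21% in si-circZFR. ZFR, the host gene, had 1437 and 1740 reads in NC and 284 and 267 reads in si-circZFR, a log2 fold change of -2.33 (SE 0.17, limma FDR 0.0388). Its reads do not separate the circle from the linear mRNA. The article reports, from RT-PCR, that its siRNA lowered circZFR and that no effect on ZFR was detected. Whether linear ZFR mRNA fell in these libraries was not tested. The leukocyte gene PTPRC was listed at 0, and the endothelial gene PECAM1 and the fibroblast gene COL3A1 had at most 2 and 5 reads per library. COL1A1, also of fibroblasts, had 61 and 42 reads in NC and 91 and 137 in si-circZFR (log2 fold change 0.58, FDR 0.210). Of the epithelial markers, EPCAM had 4 and 4 reads in NC and 18 and 28 in si-circZFR (1.20, FDR 0.0820). CDH1 had 1.05 (FDR 0.0820), KRT8 0.38 (FDR 0.555) and KRT18 0.35 (FDR 0.554). COL1A1 and EPCAM reached the 1 RPKM needed for testing only in the si-circZFR libraries, where they are high. The differences of COL1A1 and EPCAM are thus no support for a direction. The part of these differences in those of the chaperones was not tested. In bulk RNA of this kind, fewer cells of a type and less RNA per cell cannot be told apart.

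Heat shock factors bind inverted repeats of the letters GAA in the promoters of their targets, and the sites of this form found at the chaperone genes are printed here because these genes are the classical targets. In the RefSeq promoter windows (GRCh38.p14, 250 bases before to 50 bases after the start), 60 of the 70 genes had an entry. A pair of inverted units, GAANNTTC or TTCNNGAA, stood in 18 of the 60 windows (30%) and in 13.7% of all 27305 windows. A triple, which adds a further GAA or TTC in the same alternation after 2 more bases and so holds 2 overlapping pairs, stood in 4 of the 60 windows (6.67%) and in 0.487% of all windows. These 4 were the windows of HSPA8, with 2 triples, DNAJA1, DNAJB6 and HSPA6. Each is printed 5′ to 3′ on the strand of its gene, with the motif in capitals, and the pair in the near-identical windows of HSPA1A and HSPA1B follows.
HSPA8, chr11:123062346-123062374, minus strand: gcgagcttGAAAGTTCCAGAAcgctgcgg
HSPA8, chr11:123062171-123062199, minus strand: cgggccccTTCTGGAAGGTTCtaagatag
DNAJA1, chr9:33025268-33025296, plus strand: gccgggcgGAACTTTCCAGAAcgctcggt
DNAJB6, chr7:157336865-157336893, plus strand: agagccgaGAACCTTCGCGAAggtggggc
HSPA6, chr1:161524458-161524486, plus strand: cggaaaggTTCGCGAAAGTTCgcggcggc
HSPA1A, chr6:31815429-31815452, plus strand: aaaccctgGAATATTCccgacctg
HSPA1B, chr6:31827625-31827648, plus strand: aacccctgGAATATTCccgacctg
Counted from the start of the transcript, the first motif base lay at -230 and -55 for the 2 HSPA8 sites, -131 for DNAJB6, -74 for HSPA6, -106 for HSPA1A, -105 for HSPA1B and 3 for DNAJA1. A match is a description of letters and not a bound site.

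The chaperones spanned a wide range of levels, and 3 genes dominated. HSPA8, the constitutive cytosolic HSP70, was at 854 and 1260 scaled RPKM in NC and 754 and 714 in si-circZFR, and ranked 26 among the genes of type mRNA by its mean over the 4 libraries. HSP90AB1 ranked 59 and HSP90AA1 ranked 83, and these 2 genes encode the constitutive and the inducible cytosolic HSP90. Together the 3 genes took 41.8% and 42.4% of the summed RPKM of the 70 genes in NC, and 36.3% and 35.5% in si-circZFR. HSPB1 (rank 102), CCT7 (rank 122), CCT3 (rank 128) and HSPD1 (rank 130) followed, and 21 of the 70 genes were among the 1000 highest. The heat-inducible HSPA1A stood far under its constitutive paralog HSPA8, at 28.2 to 31.2 scaled RPKM. HSPA6, an HSP70 gene that is nearly silent without heat, had 1 to 6 reads per library. The plot of levels by library shows that NC 2 was the highest library for 29 of the 54 genes tested (against 33.4% of all genes tested), and si-circZFR 2 for 13.

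**Figure D1:**
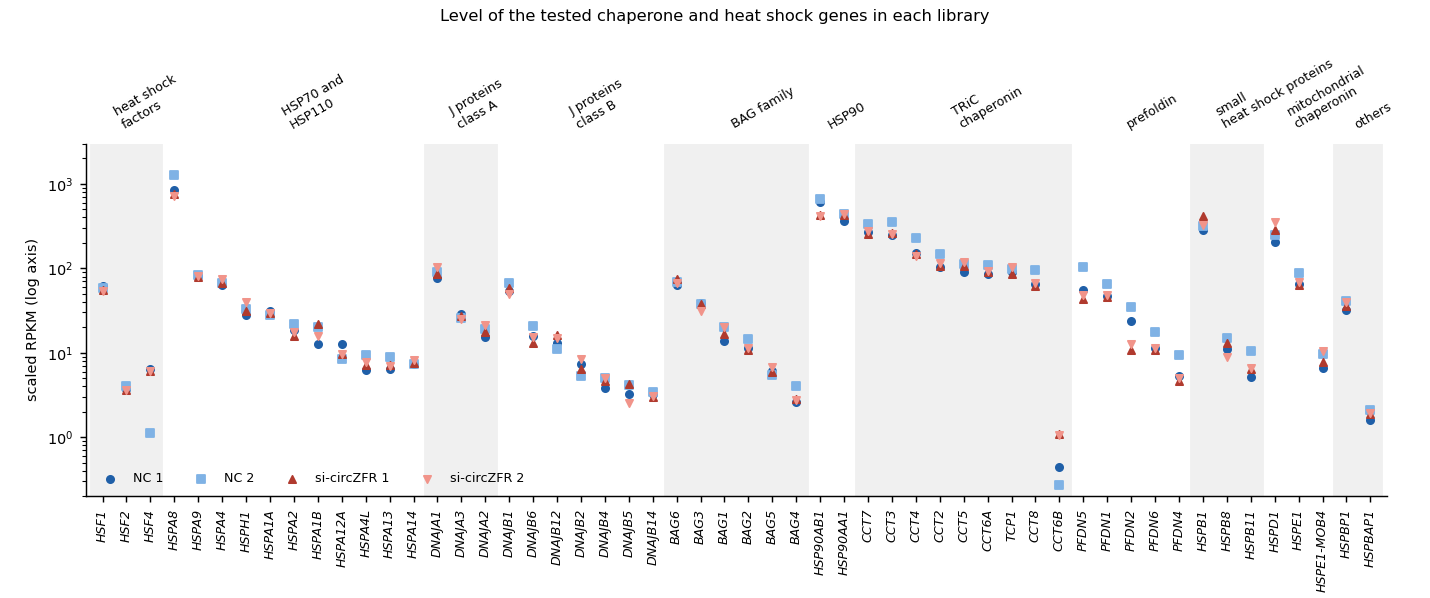
Scaled RPKM (log axis) of the 54 tested chaperone and heat shock genes in each of the 4 libraries, ordered by role and, within a role, by the mean of the NC libraries. HSPA8, HSP90AB1 and HSP90AA1 are the highest, HSF4 has a single low library (NC 2), and NC 2 is the highest library for all 5 prefoldin genes.

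Of the 70 genes, 54 reached 1 RPKM in at least 2 libraries and were tested, and none of the 54 passed the threshold (limma, FDR under 0.05 and a log2 fold change beyond 1 in either direction), which 8 of all 13885 genes tested passed (0.0576%). The smallest FDR among them was 0.0820. At an unadjusted p under 0.05 there were 3 genes (5.56%), against 21.7% of all genes tested: PFDN2 and HSP90AB1, with the lower level in si-circZFR (11.5% of all genes), and CCT6B, with the higher (10.1% of all genes). CCT6B passed the filter only through the si-circZFR libraries, where it is high, so that its difference is no support for a direction. Scaled by library totals only, 3 were higher and 1 lower, and 2135 and 964 of all genes. Both libraries of one group lay on 1 side of both libraries of the other for 19 of the 54 genes (35.2%), against 56.2% of all genes. Of these 19, 6 were higher and 13 lower in si-circZFR, and each direction held 28.1% of all genes. The log2 fold change was within 0.5 of 0 for 49 of the 54 genes, and 76% of all genes were within it. It was beyond 1 for PFDN2 alone of the 54, and for 4.58% of all genes. The median log2 fold change was -0.07, from -1.23 to 0.84, with 21 genes above 0 and 33 below, and the median of all genes tested was 0.01. Scaled by library totals only, the median of all genes moved to 0.15, that of the 54 genes to 0.09, and 35 lay above 0 and 19 below. The distance of the 54 genes from the median of all genes was -0.08 with the scaling used and -0.06 with library totals.

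The direction of the median rested on NC 2. The 54 genes were higher in NC 2 than in NC 1 by a median of 0.28 on the log2 scale, against 0.01 for all genes tested, while si-circZFR 2 and si-circZFR 1 differed by a median of 0.05. Against NC 1, the median log2 difference was 0.04 in si-circZFR 1 and 0.08 in si-circZFR 2. Against NC 2 it was -0.16 and -0.12. Fitted without NC 2, the median of the 54 genes was 0.03, and without NC 1 it was -0.12.

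**Figure D2:**
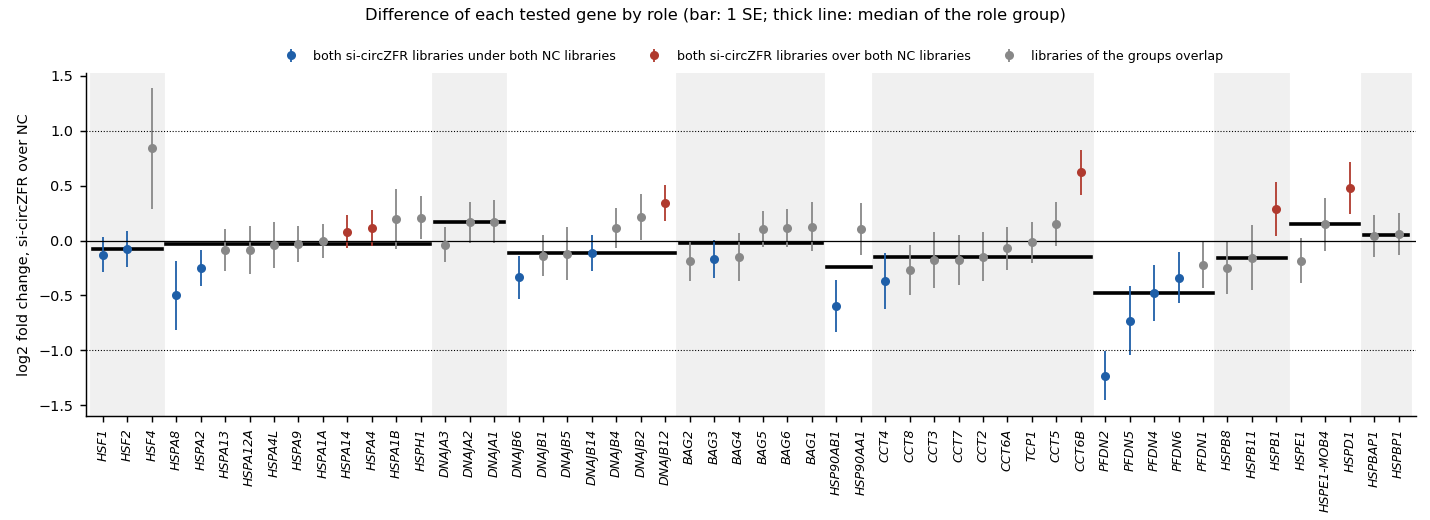
Log2 fold change (si-circZFR over NC, limma) of each of the 54 tested genes with 1 SE, in groups by role. The thick lines are the medians of the groups and the dotted lines mark a log2 fold change of 1 in either direction. The prefoldin genes all lie below 0, only PFDN2 lies beyond -1, and 35 of the 54 genes are grey because the libraries of their groups overlap.

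The heat shock factors were present at unequal levels and the 2 main ones had log2 fold changes near 0. HSF1, the master regulator of the heat shock response, was at 62.0 and 58.6 scaled RPKM in NC and 55.9 and 54.1 in si-circZFR. Its log2 fold change was -0.13 (SE 0.16, FDR 0.664), and both si-circZFR libraries lay under both NC libraries by a small step. HSF2, which binds the same sites and acts in development, was at 3.73 and 4.03 scaled RPKM in NC and 3.66 and 3.60 in si-circZFR, a log2 fold change of -0.08 (FDR 0.811). HSF4, known from the lens of the eye, had 194 reads in NC 1, 34 in NC 2, 181 in si-circZFR 1 and 194 in si-circZFR 2. A single library thus stood apart, and the log2 fold change of 0.84 (SE 0.55, FDR 0.412) became -0.06 without NC 2 and 1.73 without NC 1, where it passed the threshold (FDR 0.0456). HSF5 was listed at 0. Scaled by library totals only, all 3 tested factors lay above 0. With length and GC content corrected for, HSF1 was at -0.28 (FDR 0.292) and HSF2 at -0.07 (FDR 0.822).

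The heat-inducible genes under these factors did not share a direction. HSPA1A, the main inducible HSP70, had 888, 793, 824 and 875 reads, where the first 2 values are those of NC and the last 2 those of si-circZFR, as in the sentences that follow. Its log2 fold change was -0.01 (SE 0.15, FDR 0.987). HSPA1B, whose coding sequence is nearly the same, so that reads may be split between both, was at 12.8, 20.4, 22.2 and 15.8 scaled RPKM, with groups that overlapped (log2 fold change 0.20, FDR 0.702). DNAJB1, the J protein induced along with HSP70, was at 54.1, 66.3, 59.0 and 50.1 scaled RPKM (log2 fold change -0.14, FDR 0.703). HSPH1, the inducible HSP110 that exchanges the nucleotide of HSP70, was at 28.2, 32.8, 31.1 and 40.1 scaled RPKM (log2 fold change 0.21, FDR 0.555). The 13 tested genes with a pair of inverted GAA units in the promoter window had a median log2 fold change of -0.03, from -0.50 to 0.62, with 4 above 0 and 9 below, and the 35 tested genes with a window but no pair had a median of -0.04. The 3 tested genes with a triple had log2 fold changes of -0.50 (HSPA8), -0.33 (DNAJB6) and 0.17 (DNAJA1).

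Among the 11 tested HSP70 and HSP110 genes, the median log2 fold change was -0.03, with 4 above 0 and 7 below and none at an unadjusted p under 0.05. Scaled by library totals only, 9 lay above 0. HSPA8 had the largest difference in this group. It had 24644 and 35888 reads in NC and 21254 and 21501 in si-circZFR, and NC 1 lay much closer to the si-circZFR libraries than to NC 2. Its log2 fold change was -0.50 (SE 0.32, FDR 0.399), and -0.22 without NC 2. HSPA2, an HSP70 of the testis that many tumour lines express, was at 18.6, 22.0, 16 and 17.8 scaled RPKM (log2 fold change -0.25, FDR 0.417), with both si-circZFR libraries under both NC libraries. HSPA4, an HSP110 protein of the cytosol, was at 63.7, 67.1, 67.9 and 73.9 scaled RPKM (log2 fold change 0.11, FDR 0.712). HSPA9, the HSP70 of the mitochondrial matrix, was at 80.2, 84.3, 79.2 and 81.5 scaled RPKM (log2 fold change -0.03, FDR 0.925).

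J proteins deliver substrate to HSP70 and start its ATP hydrolysis. The 3 tested class A genes had a median log2 fold change of 0.17, and none had groups that stood apart. DNAJA1 was at 76, 91.2, 86 and 102 scaled RPKM (log2 fold change 0.17, FDR 0.636), DNAJA2 at 15.5, 18.9, 17.5 and 21.3 (0.17, FDR 0.626), and the mitochondrial DNAJA3 at 28.5, 25.6, 27.5 and 25.2 (-0.04, FDR 0.907). The 7 tested class B genes had a median of -0.11, with 3 above 0 and 4 below. DNAJB12, a J protein anchored in the membrane of the endoplasmic reticulum with its J domain in the cytosol, had 671 and 559 reads in NC and 811 and 793 in si-circZFR, and its log2 fold change of 0.34 (SE 0.16) had an FDR of 0.289. DNAJB6, which keeps polyglutamine proteins from aggregating, had 453 and 592 reads in NC and 367 and 462 in si-circZFR. Its groups stood apart on the scaled values by a narrow margin (15.6 in NC 1 and 15.2 in si-circZFR 2), with a log2 fold change of -0.33 (SE 0.20, FDR 0.363). DNAJB2, of neurons and muscle, was at 7.28, 5.36, 6.5 and 8.44 scaled RPKM (log2 fold change 0.21, FDR 0.582).

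The BAG proteins release the nucleotide from HSP70 and link it to degradation. All 6 were tested, none had a p under 0.05, and the median log2 fold change was -0.02 with 3 above 0 and 3 below. BAG6, which guards membrane proteins on their way to the membrane, was the highest at 62.7, 68.2, 75.4 and 66.5 scaled RPKM (log2 fold change 0.11, FDR 0.728). BAG3, the stress-inducible partner of HSPB8 in selective autophagy, was at 39.2, 38.2, 37.9 and 30.9 scaled RPKM (-0.17, FDR 0.587). It was the only BAG gene whose groups did not overlap, and NC 2 and si-circZFR 1 were nearly level. BAG1 was at 13.9, 20.1, 16.6 and 20.2 scaled RPKM (0.13, FDR 0.767), BAG2, which inhibits the ubiquitin ligase STUB1, at 11.3, 14.6, 10.9 and 11.4 (-0.19, FDR 0.562), and BAG4 at 2.60, 4.02, 2.87 and 2.80 (-0.15, FDR 0.716). HSPBP1, which also releases nucleotide from HSP70, was at 31.7, 41.2, 35.3 and 40.4 scaled RPKM (0.06, FDR 0.874).

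The 2 cytosolic HSP90 genes did not share a direction. HSP90AB1, the constitutive form, was at 612 and 661 scaled RPKM in NC and 422 and 417 in si-circZFR, from 19483, 20791, 13142 and 13864 reads. The si-circZFR libraries were well under both NC libraries and close to each other, and the log2 fold change was -0.60 (SE 0.24, unadjusted p 0.0461), which failed the correction over all genes (FDR 0.224). The unadjusted p of HSP90AB1 was above 0.05 when scaled by library totals (0.0769), with no filter (0.0589), with the filter on CPM (0.0581) and without si-circZFR 1 (0.194) or si-circZFR 2 (0.195). HSP90AA1, the inducible form, was at 363 and 438 scaled RPKM in NC and 423 and 437 in si-circZFR, with overlapping groups and a log2 fold change of 0.11 (SE 0.24, FDR 0.814). The RPKM of HSP90AB1 over that of HSP90AA1 was 1.68 in NC 1 and 1.51 in NC 2, and 0.998 in si-circZFR 1 and 0.954 in si-circZFR 2. In NC the constitutive form was the higher, and in si-circZFR the pair was nearly level. The ratio was 1.6 ± 0.124 in NC and 0.976 ± 0.0307 in si-circZFR (mean ± SD, n = 2 each), and a two-sided exact permutation test gave p = 0.333, the smallest that 2 libraries against 2 allow. The ratio was chosen after its values were seen. Reads of both genes may be shared with near-identical copies.

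Such copies were followed because many chaperone genes have pseudogenes, retrotransposed copies of the mRNA elsewhere in the genome. The tables list 79 genes named as copies of 16 of the 70 genes, of which 25 were tested. The 6 copies of HSP90AB1 had 1372 and 1315 reads in NC and 705 and 680 in si-circZFR, from 4.90% to 7.04% of the reads of HSP90AB1. HSP90AB3P, which holds most of them, had 1252, 1208, 636 and 611 reads (log2 fold change -0.97, FDR 0.0782). The copies of HSPA8 had 640, 805, 425 and 352 reads, and the 5 tested ones all lay below 0 (median log2 fold change -0.77). The copy at this median, HSPA8P5, had 10, 14, 7 and 1 reads. It passed the filter only through the NC libraries, where it is high, so that its difference is no support for a direction. The copies of HSPD1 had 875, 967, 1047 and 1352 reads, from 12.9% to 14.9% of those of HSPD1. The summed copies had the direction of the parent in these 3 families. The median log2 fold change of the tested copies and the value of the parent differed in sign for DNAJA1 (-0.33 and 0.17), CCT5 (-0.14 and 0.15), HSP90AA1 (-0.058 and 0.11) and TCP1 (0.065 and -0.016). How many of these reads came from the parent mRNA and how many from the copies was not tested. For CCT8, the single copy CCT8P1 held 12.7% to 17.1% of the reads of its parent, with 257, 300, 177 and 228 reads.

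**Figure D3:**
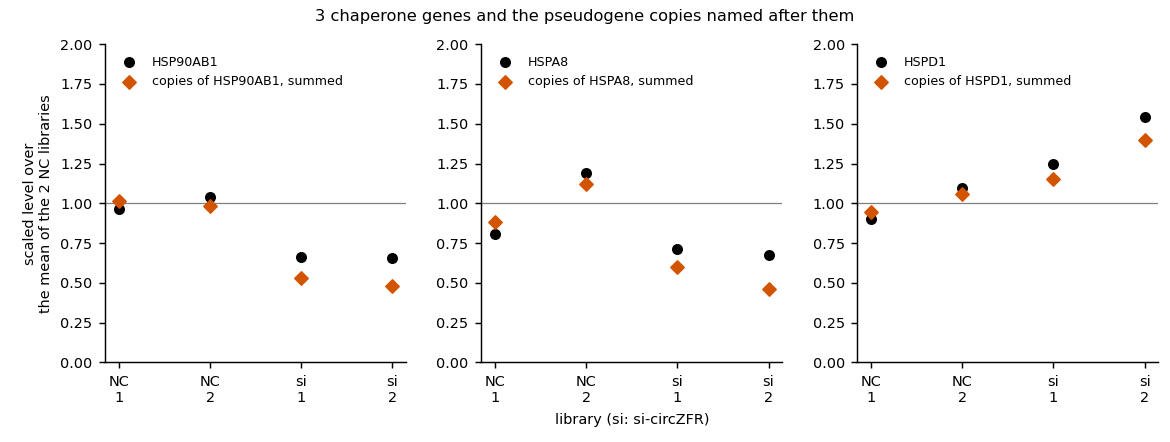
Scaled level of HSP90AB1, HSPA8 and HSPD1 (black circles) and of the summed reads of their pseudogene copies (orange diamonds) in each library, each divided by its own mean over the 2 NC libraries. For HSP90AB1 and HSPA8 both series lie below 1 in both si-circZFR libraries, and for HSPD1 both lie above 1.

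The TRiC chaperonin is a double ring of 8 different subunits, encoded by TCP1 and CCT2 to CCT8, that folds actin, tubulin and other proteins. Of the 8 subunit genes, 7 had a log2 fold change below 0, with a median of -0.16, and none had an unadjusted p under 0.05. Scaled by library totals only, 4 lay above 0 and 4 below. With length and GC content corrected for, 3 lay above 0 and 5 below, the median was -0.055 and CCT7 was at 0.047. The length recovered for CCT7, 1016 bases, may be a whole fraction of the one used for its RPKM. The corrected value of CCT7 and the count above 0 rest on that length. Their summed scaled RPKM was 1100 in NC 1, 1478 in NC 2, 1117 in si-circZFR 1 and 1171 in si-circZFR 2. NC 2 was thus the library apart, and both si-circZFR libraries lay slightly above NC 1. CCT4 had 4145 and 6218 reads in NC and 3972 and 4006 in si-circZFR (log2 fold change -0.37, SE 0.25, FDR 0.432), and it was the only subunit whose groups did not overlap. CCT8 followed with 64.8, 94.5, 61.8 and 67.6 scaled RPKM (-0.27, FDR 0.516). The most abundant subunits, CCT7 (269, 339, 256 and 280 scaled RPKM) and CCT3 (245, 350, 263 and 256), had log2 fold changes of -0.17 and -0.18. CCT2 was at 105, 146, 108 and 115 scaled RPKM (-0.15), CCT6A at 85.4, 109, 90.6 and 93.1 (-0.07), TCP1 at 90.6, 98.5, 84.9 and 103 (-0.02) and CCT5 at 89.8, 112, 106 and 117 (0.15). The levels per length of the 8 mRNAs spread from 61.8 to 350 scaled RPKM.

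CCT6B, a paralog of CCT6A known from the testis, stood apart from the other subunits. It had 10 and 6 reads in NC and 24 and 25 in si-circZFR, that is 0.449 and 0.273 scaled RPKM against 1.1 and 1.08. Both si-circZFR libraries had more reads than both NC libraries, but the gene was near the limit of the filter, which it passed through the si-circZFR libraries. Its log2 fold change was 0.62 (SE 0.21, unadjusted p 0.0254, FDR 0.177) on the scale with a pseudocount of 1, which shrinks low genes. CCT8L2 was listed at 0.

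Prefoldin is a complex of 6 subunits that binds nascent actin and tubulin and hands them to TRiC. Its 5 PFDN genes had the lowest median of the groups by role, -0.48, and all 5 had a log2 fold change below 0, also when scaled by library totals. PFDN1 lay at 0.01 without NC 2, and PFDN6 at 0.085 with length and GC content corrected for. On the scaled values, both si-circZFR libraries lay under both NC libraries for 4 of the 5, against 28.1% of all genes tested. The margin of PFDN6 was very narrow (11.310 in NC 1 and 11.303 in si-circZFR 2). With library totals only, the groups of PFDN4 (5.28 RPKM in NC 1 and 5.65 in si-circZFR 2) and PFDN6 (11.1 and 12.5) overlapped. PFDN2 had 178 and 260 reads in NC and 79 and 100 in si-circZFR, that is 23.6 and 35.0 scaled RPKM against 10.7 and 12.7. Both si-circZFR values lay well under both NC values. The log2 fold change was -1.23 (SE 0.23, FDR 0.0820), so that it missed the threshold. It passed when only genes of the type mRNA were fitted (FDR 0.0163). It also passed in limma-voom with a filter on CPM (FDR 0.0445), a fit chosen after seeing the data. In limma-voom without that filter it missed (FDR 0.0506), as it did with length and GC content corrected for (FDR 0.0950). With the filter on CPM in limma, and with the replicate block, none of the chaperone genes passed. Without NC 1 the log2 fold change of PFDN2 was -1.5, and without NC 2 it was -0.96.

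PFDN5, also known as a binding partner of MYC, was at 54.8 and 105 scaled RPKM in NC and 42.8 and 47.9 in si-circZFR. NC 2 was far above the other 3 libraries, and the log2 fold change of -0.73 (SE 0.32, FDR 0.252) became -0.27 without NC 2 and -1.19 without NC 1, where it passed the threshold (FDR 0.0473). PFDN4 was at 5.38, 9.37, 4.6 and 5.10 scaled RPKM (-0.48, FDR 0.331), PFDN6 at 11.3, 17.7, 10.7 and 11.3 (-0.34, FDR 0.428) and PFDN1 at 46.5, 64.8, 45.3 and 48.4 (-0.22, FDR 0.560). In each of these the si-circZFR libraries were close to NC 1 and under NC 2. VBP1, which encodes subunit 3 and was outside the rule, was at 19.0, 28.4, 19.8 and 20.7 scaled RPKM (-0.19, FDR 0.641). The median of the 5 genes was -0.13 without NC 2 and -0.83 without NC 1.

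Prefoldin transcripts are short, with a median recovered length of 701 bases against 2683 bases over all genes tested, and length moved with the difference between groups. Across the 13885 genes, Spearman's rho between length and log2 fold change was 0.29, and across the 54 chaperone genes it was 0.46, where genes are not independent replicates and all values come from the same 4 libraries. Between the 2 control libraries, the rho of length with the log2 difference of NC 2 from NC 1 was -0.34 over all genes and -0.43 over the 54. Among transcripts under 1 kb, the median log2 fold change was -0.30 over 2067 genes and -0.26 over the 6 chaperone genes. From 2 to 3 kb it was -0.01 over 2804 genes and -0.13 over 22 chaperone genes. Above 4 kb it was 0.12 over 4092 genes and 0.11 over 9. With length and GC content corrected for, the median of the prefoldin genes was -0.26 and the log2 fold change of PFDN2 was -0.82. The part of length in the prefoldin differences was not tested further.

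**Figure D4:**
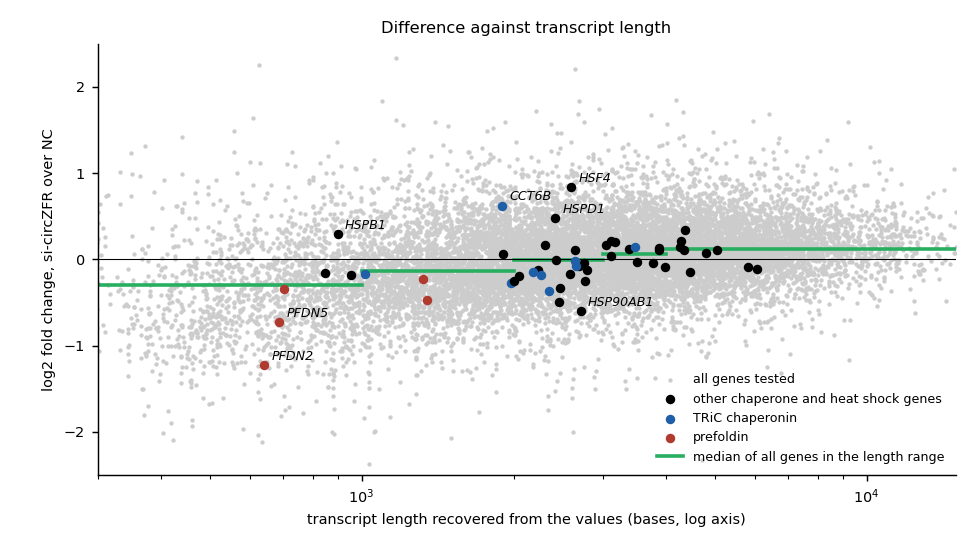
Log2 fold change against recovered transcript length (log axis, bases) for all genes tested (grey, points outside the axes not drawn) and the 54 chaperone and heat shock genes, with prefoldin in red and TRiC in blue. The green lines are medians of all genes in each length range, which go from -0.30 under 1 kb to 0.12 above 4 kb, and PFDN2 and PFDN5 lie below the line of their range.

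Small heat shock proteins hold unfolded chains without ATP. Only 3 of the 8 were tested, with a median log2 fold change of -0.15, which turned to 0.13 with length and GC content corrected for, as HSPB11 went from -0.15 to 0.13. HSPB1 (HSP27) had 2979 and 3330 reads in NC and 4335 and 3539 in si-circZFR, or 283, 321, 422 and 322 scaled RPKM. Both si-circZFR libraries lay above both NC libraries, but si-circZFR 2 and NC 2 were nearly level, and the log2 fold change was 0.29 (SE 0.25, FDR 0.519). HSPB8 was at 11.2, 15.1, 13 and 8.94 scaled RPKM (-0.25, FDR 0.562). HSPB11, which despite its symbol is a component of the transport machinery of cilia, was at 5.24, 10.4, 6.5 and 6.66 scaled RPKM (-0.15, FDR 0.787).

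HSPD1 encodes the ring subunit of the mitochondrial chaperonin (HSP60) and HSPE1 its lid (HSP10). The 2 genes share a bidirectional promoter: their RefSeq windows overlap by 204 bases (chr2:197500225-197500428, GRCh38.p14). Their log2 fold changes lay on opposite sides of 0, but not with length and GC content corrected for, where HSPD1 was at 0.54 (FDR 0.196) and HSPE1 at 0.12 (FDR 0.645), nor without NC 2, where HSPE1 was at 0.031. HSPD1 was at 207 and 251 scaled RPKM in NC and 286 and 354 in si-circZFR, from 5884, 7040, 7927 and 10491 reads, so that both si-circZFR libraries lay above both NC libraries. Its log2 fold change was 0.48 (SE 0.24, FDR 0.297). HSPE1 was at 64.8, 87.6, 64.2 and 68.3 scaled RPKM, with overlapping groups and a log2 fold change of -0.18 (SE 0.21, FDR 0.627). The RPKM of HSPD1 over that of HSPE1 was 3.20 and 2.87 in NC and 4.45 and 5.18 in si-circZFR (3.03 ± 0.236 and 4.82 ± 0.517, mean ± SD, n = 2 each). A two-sided exact permutation test gave p = 0.333, again the smallest possible, and this ratio too was chosen after its values were seen. HSPE1 (953 bases) is much shorter than HSPD1 (2420 bases), and the correction for length and GC content leaves the difference of HSPD1 and takes that of HSPE1 above 0. The readthrough HSPE1-MOB4, which overlaps HSPE1, was at 6.63, 9.81, 7.73 and 10.6 scaled RPKM (0.15, FDR 0.745).

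The other 16 genes were under the filter and were not tested. Of these, 10 were listed at 0 in all 4 libraries: CCT8L2, DNAJA4, DNAJB3, DNAJB7, DNAJB8, HSF5, HSPB2, HSPB3, HSPB7 and HSPB9. A count of 0 allows up to 3 reads, which is 0.234 to 0.272 CPM, reads relative to the library total in these libraries, for counting error only. The remaining 6 had reads: HSPA1L with 18, 25, 28 and 30, HSF2BP with 10, 11, 12 and 10, HSPA12B with 9, 7, 5 and 18, HSPA6 with 2, 6, 6 and 1, HSPB6 with 4, 6, 4 and 3, and DNAJB13 with 2, 3, 22 and 2. DNAJB13, of sperm and cilia, thus had most of its reads in si-circZFR 1 alone. Several of these genes are known mainly from testis, muscle or ciliated cells.

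The partners that work with these chaperones, and other targets of heat shock factors, were read out from a list of 62 genes outside the rule, of which 61 were tested and CRYAB was not. None passed the threshold. At an unadjusted p under 0.05 there were 14 (23.0%, against 21.7% of all genes tested). These were 7 higher and 7 lower in si-circZFR (10 and 3 when scaled by library totals only). The median log2 fold change was -0.07, with 26 above 0 and 35 below, against 7033 and 6852 of all genes tested. Scaled by library totals only, 38 lay above 0 and 23 below, against 9022 and 4863 of all genes. The median of the list was then 0.096, and without NC 2 it was 0.045. Among the 15 HSP90 co-chaperones, STIP1, which bridges HSP70 and HSP90, was at 122 and 147 scaled RPKM in NC and 74.3 and 62.9 in si-circZFR (log2 fold change -0.96, SE 0.20, FDR 0.0938). UNC45A, a chaperone of myosin that binds HSP90, was at 16.2 and 15.4 in NC and 25 and 29.7 in si-circZFR (0.75, FDR 0.10). NUDC was at 31.2 and 34.8 in NC and 48.8 and 57.4 in si-circZFR (0.67, FDR 0.125). For each of the 3 the groups stood clear of each other, in directions that were not the same. AHSA1, which speeds the ATPase of HSP90, was the fourth of this group at an unadjusted p under 0.05 (0.41, FDR 0.224).

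Of the 13 partners of HSP70, only DNAJC8 had an unadjusted p under 0.05 (log2 fold change -0.60, FDR 0.175), and DNAJC6 (0.45, FDR 0.279) and DNAJC13 (0.33, FDR 0.418), J proteins of clathrin uncoating and of endosomes, followed. Of the 7 partners of prefoldin and TRiC, 6 lay below 0. Their median log2 difference was 0.019 in si-circZFR 1 and 0.072 in si-circZFR 2 against NC 1. Against NC 2 it was -0.59 and -0.43. UXT, a prefoldin-like subunit, was at 41.5 and 52.0 scaled RPKM in NC and 30.4 and 25 in si-circZFR (-0.73, FDR 0.130). Its transcript is short (777 bases), and all genes under 1 kb had a median log2 fold change of -0.30. Over the alternative settings the log2 fold change of UXT went from -0.89 to -0.36. PDRG1, another prefoldin-like subunit, had -0.42 (FDR 0.235). PDCL3, a phosducin-like partner of TRiC, had 0.48 (FDR 0.222). Among 16 tested further targets of heat shock factors, 11 lay below 0. Their median log2 difference was -0.15 in si-circZFR 1 and -0.091 in si-circZFR 2 against NC 1. Against NC 2 it was -0.25 and -0.23. HMOX1, the heme oxygenase that oxidative stress and NRF2 also induce, was at 76.8 and 92.6 scaled RPKM in NC and 46.3 and 41.1 in si-circZFR (-0.94, FDR 0.0902), and it passed without NC 1 (-1.07, FDR 0.0488). SERPINH1, the collagen chaperone HSP47, was at 29.2 and 35.2 in NC and 53.4 and 49.7 in si-circZFR (0.67, FDR 0.125). JUN, an immediate early factor, had 0.62 (FDR 0.142). DEDD2 (-0.46, FDR 0.210) and ZFAND2A (-0.48, FDR 0.224) were the other targets at an unadjusted p under 0.05. Of the 5 such targets, 2 were higher and 3 lower in si-circZFR.

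The largest difference of the list was in an organelle. LONP1, the protease and chaperone of the mitochondrial matrix, was at 22.7 and 22.8 scaled RPKM in NC and 43.2 and 51.1 in si-circZFR, a log2 fold change of 1.01 (SE 0.16, FDR 0.0812). Both NC libraries were nearly equal and both si-circZFR libraries were far above them. It passed with a filter on CPM (FDR 0.0475), in limma-voom (FDR 0.0307, and 0.0260 with that filter) and among genes of the type mRNA only (FDR 0.0164). In the remaining settings it missed the threshold. Over the 16 alternative settings its log2 fold change went from 0.83 to 1.18. GRPEL1, the nucleotide exchange factor of HSPA9, had -0.61 (FDR 0.213), and DNAJB11, of the endoplasmic reticulum, had 0.34 (FDR 0.269).

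**Figure D5:**
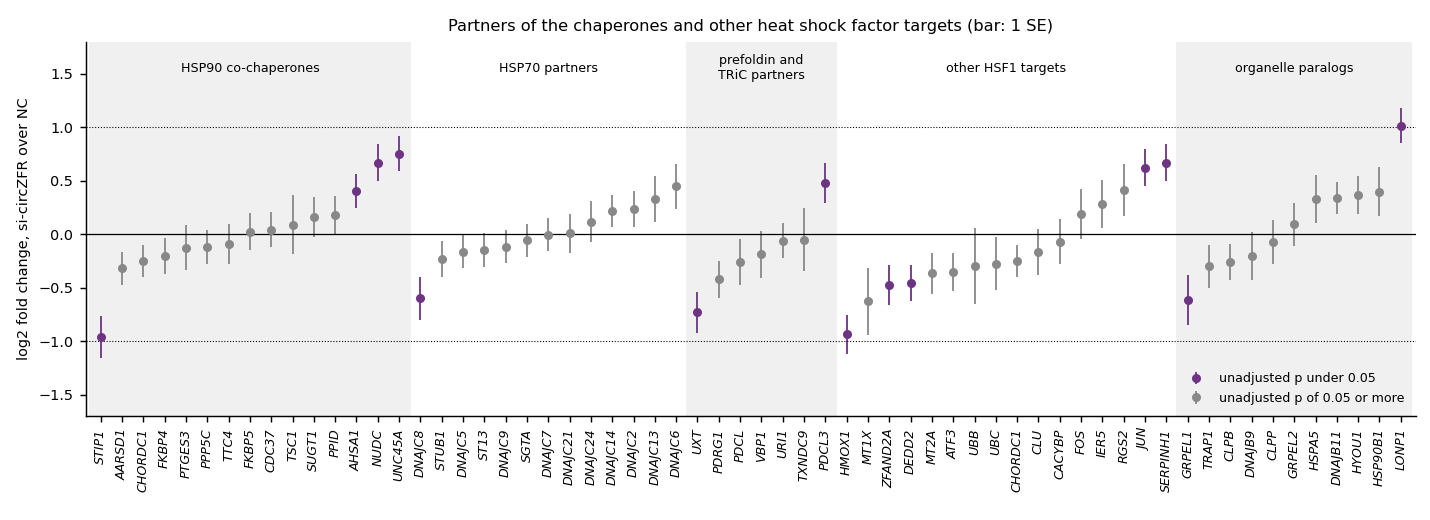
Log2 fold change (si-circZFR over NC, limma, 1 SE) of the 61 tested partner genes in 5 parts, where CHORDC1 stands in both the HSP90 co-chaperones and the heat shock factor targets. Purple marks the 14 genes with an unadjusted p under 0.05, 7 on each side of 0, among them STIP1 and HMOX1 below 0 and LONP1, UNC45A, NUDC and SERPINH1 above.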

How the data were processed

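RNA-seq libraries of 4 samples were sequenced on the Ion Proton. The deposited tables hold RPKM per gene with symbols only, computed by the authors. The article names hg38 and the submitters' processing notes GRCh37, so no coordinate comes from the tables. Read totals were recovered from small RNA genes of known length. At a length under 130000 bases, 24282 of 24289 genes above 0 (99.97%) gave whole reads in all libraries (tolerance 0.001 reads). The smallest such length was kept, or a multiple of it that equals an annotated transcript length. Reads and lengths of some genes, such as EPCAM (859 bases), may thus be too small by a common factor. RPKM do not depend on this, but the CPM filter, limma-voom and the length correction do. RPKM were scaled by trimmed means (30% of ratios, 5% of levels). Genes at 1 RPKM or more in 2 libraries were tested on log2(scaled RPKM + 1) with limma 3.58.1 (R 4.3.3), trended variance, two-sided, Benjamini-Hochberg adjustment over 13885 genes, FDR under 0.05 and a log2 fold change beyond 1. The scripts were tested on simulated data. The replicate numbers were not taken as pairs. The study names SVA for batch effects and edgeR, a count test that does not apply to the deposited RPKM. SE is of the fitted log2 fold change.

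The genes and lists were chosen with earlier results of these data known. Genes named were those fixed by symbol for each role, the 3 with the smallest p in each role and each part of the partner list, and any with a log2 fold change beyond 1. HSP90AB3P, HSPA8P5, CCT8P1, VBP1, AHSA1, DEDD2, ZFAND2A and the genes not tested were named outside that rule, after their values were seen. Alternatives (scaling, filter, pseudocount, voom, mRNA only, block, length and GC correction, leaving out each library) are in the closing section. One marker of the cell line is not reported here.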

Additional observations from a re-analysis of the deposited data

How the results depend on the processing

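The number of all genes passing, 8, was the least stable value. It was 0 with no filter on low values, 198 with a filter of CPM above 1, 2 with a pseudocount of 0.1, 1 without a trended variance, 301 in limma-voom on recovered reads, 216 with genes of type mRNA only and 365 in limma-voom with the filter on CPM, which was chosen after seeing the data. The replicate block gave 63 (and an unadjusted p of 0.112 for HSP90AB1), the length and GC correction 19 and both together 44. The replicate numbers do not pair the libraries by label, and the deviations of same-numbered libraries correlated at 0.0694. Leaving out each library gave 0 to 717 (717 without NC 1). Of the chaperone genes, 1 passed with mRNA only and 1 in limma-voom with the CPM filter, PFDN2 in both, and 0 to 3 passed on leaving out each library. Without NC 1 these were PFDN2, PFDN5 and HSF4. Between 1 and 14 of the 54 had an unadjusted p under 0.05 on leaving out each library, and 14 was without NC 1. Of all genes tested, 7.45% to 33.6% had such a p in these fits, and 33.6% was also without NC 1. The 14 thus does not set the chaperone genes apart from all genes. Scaling by library totals moved the median log2 fold change of the 54 genes to 0.087, of HSP90 to -0.071, of class A J proteins to 0.33 and of TRiC to 0.025. Leaving out each library, the medians went from -0.12 to 0.032 for the 54 genes, 0.029 to 0.30 for class A J proteins, -0.34 to 0.078 for TRiC, -0.10 to 0.40 for the mitochondrial chaperonin, -0.83 to -0.13 for prefoldin and -0.45 to 0.28 for small heat shock proteins. The rho of length with log2 fold change was 0.0049 with the length and GC correction, with or without the block, and 0.16 to 0.36 on leaving out each library. ZFR missed the FDR threshold with no filter (-2.33, FDR 0.226), a pseudocount of 0.1 (-2.52, FDR 0.0506), no trend (-2.33, FDR 0.0568) and on leaving out NC 2, si-circZFR 1 or si-circZFR 2, and its log2 fold change stayed between -2.47 and -2.19 without each library in turn. A library left alone in its group is assumed to vary like the other group. The causes were not tested.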
